A study of Rattus norvegicus with 36 samples.

Results

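AMPA and kainate receptors are the glutamate-gated ion channels that are not NMDA receptors, and this account follows the 9 rat genes that encode their pore-forming subunits. The members were taken by gene symbol, under a rule that sets no threshold on a measured value. All 9 were found among the 20603 gene rows of the table, and all 9 passed a minimum median of 10. They are Gria1, Gria2, Gria3 and Gria4 for the AMPA receptor and Grik1, Grik2, Grik3, Grik4 and Grik5 for the kainate receptor.

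Total RNA from hippocampus of female rats was sequenced in 36 libraries, with 6 animals in each of 6 groups. Reg6m and Reg9m were rats with regular reproductive cycles at 6 and 9 months of age. Irreg9m and Acyc9m were 9-month-old rats with irregular cycles and with none, and Acyc16m were acyclic rats at 16 months. RegOVX10m rats had regular cycles, were ovariectomized at 9 months, and gave tissue at 10 months of age. The table names each of its 36 columns by the tissue and a running number, which ties no column to an animal or a group. The 36 libraries are therefore described here as 1 ungrouped set, and no comparison of age, cycle status or surgery was made. A relation across the set can reflect differences between the 6 groups or between animals of 1 group, and these cannot be told apart. Libraries are called by the number in the column name, and whether that number follows the groups is unknown.

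AMPA receptors carry most of the fast excitatory current at synapses. They are assembled from the GluA subunits that Gria1 to Gria4 encode, and the edited form of GluA2 makes the channel nearly impermeable to calcium. Kainate receptors act before and after the synapse. The products of Grik1, Grik2 and Grik3 can form channels on their own, whereas those of Grik4 and Grik5 need one of the former. In hippocampus, kainate receptors are best known at the mossy fibre synapses onto CA3 pyramidal cells and in interneurons.

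The kainate subunits Grik3, Grik4 and Grik5 are shown by their promoters, because their levels moved together in one pair (Grik4 with Grik5) and in opposite directions in another (Grik3 with Grik4). RefSeq's promoter table for GRCr8 held 6 of the 9 members and lacked an entry for Gria1, Gria2 and Gria3. The 250 bases before the annotated start follow, with capitals marking the GC box, GGGCGG, searched on both strands with overlapping matches kept.
Grik3 (GRCr8 chr5:143052192-143052441, plus strand): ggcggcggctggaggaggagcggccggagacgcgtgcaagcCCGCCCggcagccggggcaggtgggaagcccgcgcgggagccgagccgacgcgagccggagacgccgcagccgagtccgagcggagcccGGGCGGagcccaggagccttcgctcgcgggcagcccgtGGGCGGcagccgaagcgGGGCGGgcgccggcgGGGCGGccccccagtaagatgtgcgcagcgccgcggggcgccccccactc
Grik4 (GRCr8 chr8:52102064-52102313, minus strand): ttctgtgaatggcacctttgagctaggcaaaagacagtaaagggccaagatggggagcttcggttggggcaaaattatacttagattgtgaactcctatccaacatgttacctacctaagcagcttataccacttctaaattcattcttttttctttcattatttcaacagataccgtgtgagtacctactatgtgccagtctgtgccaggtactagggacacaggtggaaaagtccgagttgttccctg
Grik5 (GRCr8 chr1:89794910-89795159, minus strand): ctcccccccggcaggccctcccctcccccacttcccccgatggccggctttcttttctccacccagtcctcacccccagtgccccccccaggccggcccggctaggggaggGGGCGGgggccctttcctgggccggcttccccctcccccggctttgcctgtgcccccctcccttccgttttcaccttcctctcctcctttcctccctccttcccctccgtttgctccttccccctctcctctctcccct

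The Grik3 window was 81.6% G and C with 41 CG dinucleotides, and 0.657% of all 33469 windows in the table reached that share. It held 5 GC boxes. The Grik5 window was 70.8% G and C with 10 CG dinucleotides and 1 GC box. The Grik4 window was 43.2% G and C, below the median of 51.2% over all windows, and had 3 CG dinucleotides and no GC box. A GC box was present in 30.5% of all windows, and of the 6 members only Grik3 and Grik5 held one. AGGTCA, the core of the estrogen response element, was found in 14.1% of all windows and in 0 of the 6 members on either strand. A match or its absence describes the letters of a 250-base window and says nothing of a factor's binding. Whether the promoters bear on the levels was not tested.

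The values were normalized counts that are not divided by gene length, so levels of different genes were not compared. The deposited columns summed to between 34455978 and 35985904 normalized counts, and Spearman's rho between any 2 libraries over the 15837 genes with a median of at least 10 was between 0.990 and 0.998. The number of reads behind each value is unknown. A marker of each hippocampal field was present in every library (dentate Prox1 3301 to 5722, CA1 Wfs1 6799 to 18360, CA2 Rgs14 3319 to 5710, CA3 Cpne4 7630 to 11771). Not all markers used below were: dentate Tdo2 was 0 in 19 libraries, and CA3 Iyd had a median of 5.04. Library 17 lay farthest from the others, with a root mean square log2 distance of 0.31 from the gene means against a next highest of 0.27 in library 30 and a median of 0.22. In library 17, 5 of the 5 oligodendrocyte markers and 3 of the 3 endothelial markers were at their highest, and 5 of the 6 inhibitory interneuron markers, all but Pvalb, were at their lowest. The summed oligodendrocyte markers reached 325865 there against 116638 to 208454 in the other libraries. The summed interneuron markers were 10932 there against 16216 to 22717. Correlation calls gained or lost without library 17 are given beside the results.

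Among the AMPA subunits, Gria1, which encodes GluA1, had a lowest value of 11004 normalized counts in library 17, a median of 14931 and a highest value of 16374 in library 3. The next lowest value was 13044, in library 10, so library 17 stood apart. The highest value was 1.49 times the lowest, and 1.26 times the lowest without library 17. Gria2, which encodes the subunit that sets calcium permeability, ranged from 36350 in library 17 to 45862 in library 16, with a median of 40501. Library 34 was next to library 17 at 36959, so the low end of Gria2 was held by more than 1 library, and the highest value was 1.26 times the lowest. Gria3, which encodes GluA3, ranged from 9465 in library 10 through a median of 10567 to 11479 in library 16. Library 17 was within the range of the others for Gria3, at 10232. Gria4, which encodes GluA4, a subunit known from interneurons, ranged from 2613 in library 17 through a median of 3283 to 3620 in library 15. Libraries 11 and 17 were both low for Gria4, with 2707 in library 11. Libraries 15 and 16 held the 2 highest values of both Gria2 and Gria3.

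Among the kainate subunits that form channels on their own, Grik1, known from interneurons, ranged from 420 in library 1 through a median of 476 to 557 in library 29. Grik2, which encodes the main subunit of mossy fibre kainate receptors, ranged from 2740 in library 34 through a median of 3105 to 3723 in library 15. Grik3 had the widest range of the 9 members, from 276 in library 10 through a median of 441 to 586 in library 2. Its highest value was 2.13 times its lowest, whereas the other 8 members had ratios of 1.21 to 1.49. Libraries 10 and 4 were the lowest for Grik3, at 276 and 306, and libraries 2 and 16 the highest, at 586 and 567. Grik4, known from CA3 pyramidal cells, ranged from 2993 in library 20 through a median of 3397 to 3924 in library 10. Library 10 was thus the highest of all for Grik4 and the lowest for Grik3. Grik5, which encodes the most widely found partner subunit, ranged from 6819 in library 17 through a median of 8170 to 8744 in library 26. Without library 17 the highest Grik5 value was 1.17 times the lowest, against 1.28 times with it.

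**Figure D1:**
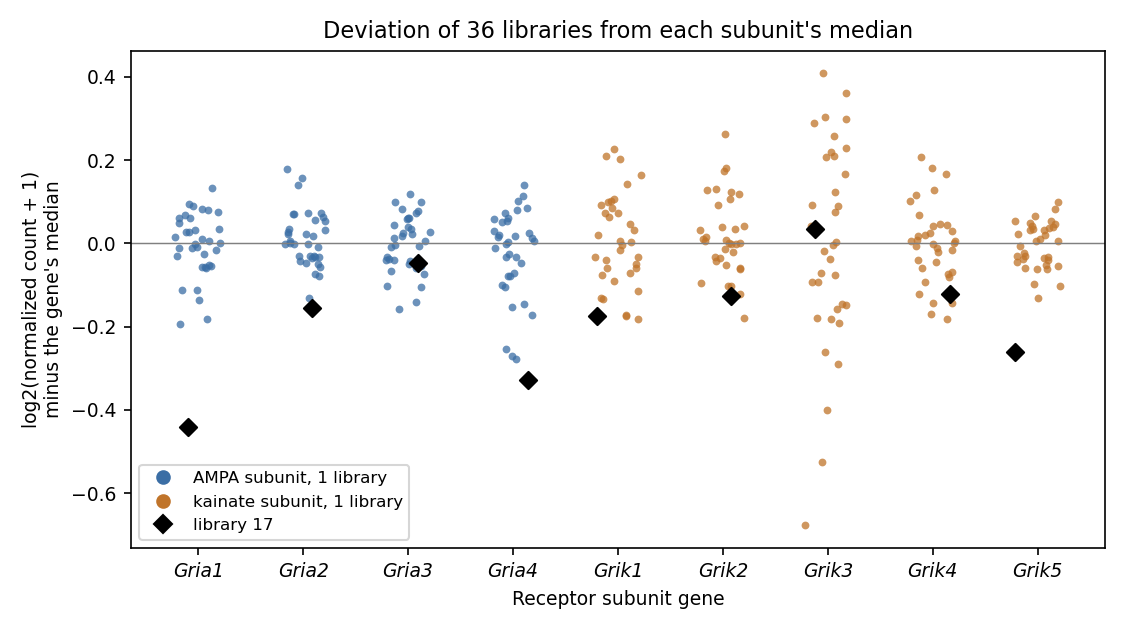
Each point is 1 of the 36 libraries, and the vertical axis gives log2(normalized count + 1) minus that gene's median over the libraries. Grik3 spread most widely, and library 17 (black diamonds) was the lowest for Gria1, Gria2, Gria4 and Grik5.

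The spread was set beside that of other genes, because low genes vary more. The SD of log2(value + 1) was 0.25 for Grik3, and of the 200 genes nearest to it in median 13 had a larger SD. The median SD of those 200 genes was 0.12. Gria4, with an SD of 0.12, was exceeded by 35 of its 200 nearest genes. Gria2, Gria3 and Grik5 had SDs of 0.07 and were exceeded by 133, 125 and 130 of their 200 nearest genes, so these subunits were within the usual range for their level. Grik1 was in the middle, with 102 of 200 genes above its SD of 0.11.

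Ratios within a library cancel that library's scaling, and each is given here as a multiple of its median over the 36 libraries, which also cancels gene length. The ratio of Gria3 to Gria2 was the steadiest of the 9 ratios examined, between 0.94 and 1.09 times its median. The ratio of Gria1 to Gria2 lay between 0.83 times its median in library 17 and 1.16 times in library 34. Without library 17 its highest value was 1.28 times its lowest, against 1.41 times with it. Gria1 to Gria3 spanned 1.47 times with library 17, its lowest, and 1.22 times without it. Gria4 to Gria2 fell to 0.79 times its median in library 11 and reached 1.07 times in library 34. The ratios with Grik3 spread most widely. Grik3 to Grik4 ranged from 0.53 times its median in library 10 to 1.39 times in library 2, a span of 2.62 times. Grik3 to Grik2 spanned 2.06 times and Grik2 to Grik5 1.46 times. Grik1 to Grik2 lay between 0.77 and 1.15 times its median. Grik4 to Grik5 spanned 1.37 times, with the highest ratio in library 14 and the lowest in library 26.

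Correlations between the 9 subunits were computed on log2(value + 1) over the 36 libraries, with a two-sided permutation test and adjustment over all 36 pairs by the Benjamini-Hochberg method. At an adjusted p under 0.05, 11 of the 36 pairs were correlated, with unadjusted permutation p between 2.0e-05 and 0.0132. The p-values treat the libraries as exchangeable and measure only the spread between these 36. The permutation test was not run over all genes, so shares of genes by size of r are given below instead. All 6 pairs of AMPA subunits were among the 11, with r between 0.41 and 0.70. Of the 20 pairs of an AMPA with a kainate subunit 3 passed, all with Grik2, and 4 more, with Grik3 or Grik5, passed without library 17. Of the 10 pairs of kainate subunits 2 passed, 1 positive and 1 negative.

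The highest correlation was that of Gria2 with Gria3 (Pearson r = 0.70, Spearman rho = 0.73, permutation p = 2.0e-05 for each, adjusted p = 7.2e-04). It kept r = 0.62 (adjusted p = 0.00684) without the 2 libraries farthest from the median of Gria2. Gria2 with Grik2 followed (r = 0.61, rho = 0.43, adjusted p = 0.00126 for Pearson and 0.041 for Spearman, permutation test), and without the 2 farthest libraries r was 0.46 with an adjusted p of 0.0562. Gria4 with Grik2 gave r = 0.50 and rho = 0.54 (adjusted p = 0.0163 and 0.00864), and r = 0.50 with an adjusted p of 0.0497 without the 2 farthest. With the first principal component of all other genes removed its r was 0.36 (adjusted p = 0.118), whereas Gria2 with Gria3 kept 0.70 and Gria2 with Grik2 0.54 (adjusted p = 3.6e-04 and 0.0118). Gria3 with Grik2 gave r = 0.44 (adjusted p = 0.028) and rho = 0.37 (adjusted p = 0.0942). It lost its call without library 1, 15, 16 or 19, with r then between 0.38 and 0.41. Grik2, a kainate subunit, thus went with Gria2, Gria3 and Gria4, and its r with Gria1 was 0.24 (adjusted p = 0.356).

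The other 5 AMPA pairs lay nearer to the threshold, and those of Gria1 with Gria2 and with Gria4 depended on library 17. Gria1 with Gria2 had r = 0.48 (rho = 0.43, adjusted p = 0.0191 for Pearson and 0.041 for Spearman), and without library 17 r was 0.32 (adjusted p = 0.129). Gria1 with Gria4 had r = 0.51 (rho = 0.31, adjusted p = 0.0163 for Pearson and 0.165 for Spearman), so its rank correlation did not pass. Without library 17 its r was 0.33 (adjusted p = 0.128). Gria2 with Gria4 had r = 0.47 (rho = 0.47, adjusted p = 0.0203 and 0.0404). Without library 17 r was 0.36 and without library 15 it was 0.41, neither past the threshold. Gria1 with Gria3 had r = 0.42 (rho = 0.42, adjusted p = 0.0331 and 0.0466) and r = 0.48 without library 17 (adjusted p = 0.0262). That call was lost on leaving out any 1 of libraries 1, 10, 12, 19 and 20, with r then between 0.35 and 0.41. Gria3 with Gria4 had the lowest positive r of the pairs that passed, 0.41 (rho = 0.45, adjusted p = 0.0433 and 0.041). Leaving out any 1 of 13 libraries (1, 10, 12, 14, 15, 16, 18, 19, 20, 24, 25, 29 and 35) ended its call, with r between 0.37 and 0.41. None of these 5 pairs passed without the 2 libraries farthest on the first gene's axis, where r was 0.26 for Gria1 with Gria2, 0.26 for Gria1 with Gria4, 0.37 for Gria2 with Gria4, 0.38 for Gria1 with Gria3 and 0.33 for Gria3 with Gria4.

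Grik4 and Grik5, whose products both need a partner to form a channel, were positively correlated (r = 0.47, rho = 0.55, adjusted p = 0.0191 and 0.00864, permutation test). The call held on leaving out any 1 of the 36 libraries, and without the 2 farthest r was 0.44 (adjusted p = 0.0598). Grik3 and Grik4 were negatively correlated (r = -0.47, rho = -0.44, adjusted p = 0.0191 and 0.041). Without library 10, the lowest for Grik3 and the highest for Grik4, r was -0.36 (adjusted p = 0.111). Without the 2 farthest it was -0.40 (adjusted p = 0.0841). Grik1 passed with none of the other 8 subunits, and its r values lay between -0.01 and 0.20 except for -0.04 with Grik4. Gria1 with Grik5, at r = 0.41, had an adjusted p of 0.0678. It passed without library 7, at r = 0.46, and had r = -0.04 without library 17.

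Without library 17, 5 further pairs passed the permutation test. Grik3, which forms channels on its own, was positively correlated with Gria1 (r = 0.47, adjusted p = 0.0262) and with Gria4 (r = 0.42, adjusted p = 0.0391). With library 17 these were 0.32 and 0.37 (adjusted p = 0.149 and 0.074). Grik5 was negatively correlated with Gria2 (r = -0.41, adjusted p = 0.0423), Gria4 (r = -0.47, adjusted p = 0.0262) and Grik2 (r = -0.42, adjusted p = 0.0391). With library 17, the lowest for Gria2, Gria4 and Grik5, these were -0.05, -0.07 and -0.18. Leaving out library 17 was a choice made after seeing the data, and shares of all genes are not given for these 5 pairs. With all 36 libraries and the first principal component removed, r of Grik3 was -0.18 with Gria1 and -0.13 with Gria4, opposite in sign. There r of Grik5 was -0.03 with Gria2, -0.03 with Gria4 and -0.16 with Grik2. The adjusted p of the 5 pairs was then between 0.608 and 0.994 (permutation test).

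**Figure D2:**
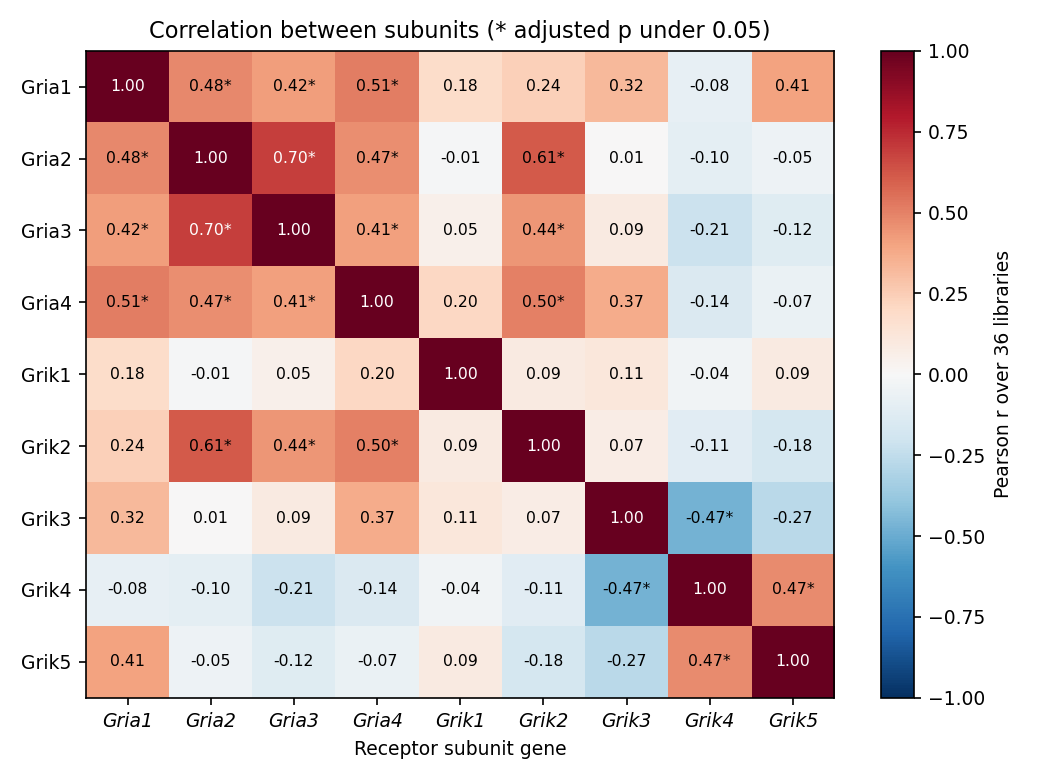
Cells give Pearson r of log2(value + 1) over 36 libraries for each pair of subunits, and stars mark an adjusted p under 0.05. The 6 AMPA pairs are all positive and starred, Grik2 joins Gria2, Gria3 and Gria4, and Grik3 with Grik4 is the only negative starred pair, at -0.47.

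Many genes correlate across a set of whole-tissue libraries, so each subunit was also set beside the 15836 other genes with a median of at least 10. An r of at least 0.5 in size, in either direction, was reached by 9.86% of them with Gria1, 7.94% with Gria2, 3.46% with Gria3 and 6.40% with Gria4. For the kainate subunits the shares were 0.398% with Grik1, 7.26% with Grik2, 11.9% with Grik3, 3.30% with Grik4 and 8.17% with Grik5. Grik1 thus had few correlated genes of any kind and Grik3 the most. Read against these, Gria2 and Gria3 stood high in each other's order. Only 0.360% of genes had as high an r with Gria2 as Gria3 had, and 0.0884% had as high an r with Gria3 as Gria2 had. Between Gria1 and Gria2 the shares were 6.24% and 6.04%, and for Gria4 with Grik2 they were 3.65% and 4.19%. For Gria1 with Gria3 they were 9.37% and 4.61%, for Gria1 with Gria4 5.00% and 3.32%, and for Gria2 with Gria4 6.77% and 5.35%. Gria3 with Gria4 had 5.13% and 8.19%, Gria3 with Grik2 3.92% and 6.95%, and Gria2 with Grik2 1.60% and 1.20%. As low an r as that of Grik3 with Grik4 was reached by 5.82% of genes with Grik3 and 2.41% with Grik4. For Grik4 with Grik5, 2.57% of genes had as high an r with Grik4 and 7.27% with Grik5.

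The make-up of a dissected hippocampus can vary, and each subunit was therefore correlated with the mean log2(value + 1) of 13 marker lists, with adjustment over the 117 relations. In whole tissue, fewer cells of a type and less RNA per cell cannot be told apart. At an adjusted p under 0.05, 17 relations passed, 6 positive and 11 negative, with unadjusted permutation p between 4.0e-05 and 0.00579. They were 3 with the CA2 list, 3 with the inhibitory interneuron list, 3 with endothelium, 2 each with oligodendrocytes, oligodendrocyte precursors and the striatum and thalamus list, and 1 each with CA1 and excitatory neurons. By the permutation test of Pearson r 0 relations passed for the dentate granule, CA3, astrocyte, microglia and choroid plexus lists. By that of Spearman's rho, Gria1 with the choroid plexus list passed (rho = -0.54, adjusted p = 0.0343). Gria1 with the dentate granule list had r = 0.30 (adjusted p = 0.236). With list members of median at least 10 only, which left out Tdo2, r was 0.39 (adjusted p = 0.0812). Over all lists, 34 relations had an unadjusted p under 0.05. Gria3 passed with no list. How often other genes pass with these lists was not computed.

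The 3 subunits that went with the inhibitory interneuron list were Gria1, Gria4 and Grik1. Gria1 had r = 0.78 (rho = 0.43, adjusted p = 0.00468 and 0.0763) and r = 0.54 without library 17 (adjusted p = 0.0284). Of the list's genes, Gad2, which makes GABA, had r = 0.81 with Gria1 and Slc32a1, the vesicular GABA transporter, 0.78, whereas Pvalb had -0.04. Gria4 had r = 0.56 with the list (rho = 0.42, adjusted p = 0.00799 and 0.0763) and 0.40 without library 17 (adjusted p = 0.0956). With Pvalb the r of Gria4 was -0.12, against 0.44 to 0.70 with the list's other genes. Grik1 had r = 0.52 (rho = 0.55, adjusted p = 0.00799 and 0.0287) and 0.51 without library 17 (adjusted p = 0.0284). Of the list's genes, Sst had r = 0.52 with Grik1, Gad1 0.48 and Slc32a1 0.46. The call for Grik1 held on leaving out any 1 library, as did that for Gria1. With the first principal component removed, r with the list was 0.68 for Gria1 (adjusted p = 0.00351). There it was 0.45 for Grik1 and 0.35 for Gria4 (adjusted p = 0.0562 and 0.175), neither past the threshold.

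The CA2 list, which holds Rgs14 and Amigo2, went with kainate subunits only among the 17 calls. Grik4 had r = 0.58 with it (rho = 0.57, adjusted p = 0.00799 and 0.0287) and 0.55 without library 17 (adjusted p = 0.0284). Grik5 had r = 0.595 (rho = 0.49, adjusted p = 0.00585 and 0.044) and 0.48 without library 17 (adjusted p = 0.0354). The calls of Grik4 and Grik5 with the CA2 list held on leaving out any 1 library. Of the list's genes, Rgs14 had r = 0.62 with Grik5, Amigo2 0.47, Ccdc3 0.30 and Pcp4 0.12. Without library 17 these were 0.66, 0.25, 0.26 and -0.10. Grik3 went the other way, with r = -0.47 (rho = -0.51, adjusted p = 0.0301 and 0.0416), and lost its call without library 2, 10 or 16, with r then between -0.43 and -0.41. Grik5 was also correlated with the CA1 list (r = 0.48, rho = 0.43, adjusted p = 0.0231 and 0.0763), with 0.44 and an adjusted p of 0.0508 without library 26. The CA3 list did not pass with Grik4 (r = -0.04, adjusted p = 0.95). Of its 6 genes, Cpne4 had r = 0.84 with Grik4 and Bok 0.55, whereas Coch had 0.07, Cdh24 -0.09, Prkcd -0.17 and Iyd, at 0.996 to 12.4 normalized counts, -0.33. With list members of median at least 10 only, a choice made after seeing the data, r of Grik4 with the CA3 list was 0.47 (adjusted p = 0.0283), with Cpne4 and Bok as the 2 of its 5 genes that went with Grik4.

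The 7 relations that passed with oligodendrocyte, oligodendrocyte precursor and endothelial lists were all negative, and all 7 lost their call without library 17, whose marker sums are given above. Grik3 with oligodendrocyte markers went the other way, from r = -0.40 (adjusted p = 0.0762) to -0.56 without library 17 (adjusted p = 0.0284). Gria1 with the choroid plexus list and Grik2 with the CA1 list also passed without library 17, at -0.51 and -0.50 (adjusted p = 0.0284 and 0.0324), against -0.49 and -0.44 with it (adjusted p = 0.0605 and 0.0511). Gria1 had r = -0.66 with oligodendrocyte markers and -0.61 with endothelial markers (Pearson adjusted p = 0.00799 and 0.013). Its rho values were -0.46 and -0.35 (Spearman adjusted p = 0.0635 and 0.163). Without library 17 its r values were -0.38 and -0.32 (adjusted p = 0.127 and 0.243). Gria2 had r = -0.54 with oligodendrocyte markers (rho = -0.37, adjusted p = 0.013 for Pearson and 0.13 for Spearman). Without library 17 it was -0.40 and without library 16 -0.44, neither past the threshold. With oligodendrocyte precursor markers r was -0.47 for Gria1 and -0.47 for Gria4 (Pearson adjusted p = 0.0231 and 0.0298). Their rho values were -0.50 and -0.46 (Spearman adjusted p = 0.0416 and 0.0593). The first call was lost without library 10 or 17 and the second without library 7, 10, 15 or 17, with r between -0.46 and -0.41. The genes of the precursor list differed. Olig1 had r = -0.58 with Gria1 and -0.54 with Gria4, and Sox10 -0.54 and -0.43, and both genes were at their highest in library 17. Olig2 had -0.27 and -0.31, Pdgfra -0.29 and -0.11, Gpr17 0.01 and -0.21, and Cspg4 0.11 and 0.05. Grik1 with endothelium had r = -0.46 (rho = -0.42, adjusted p = 0.0301 for Pearson and 0.0763 for Spearman). It lost its call without library 7, 17 or 19, with r between -0.43 and -0.39. Grik5 with endothelium had r = -0.49 (rho = -0.38, adjusted p = 0.0398 for Pearson and 0.13 for Spearman). Its call was lost without any 1 of libraries 7, 16, 17, 22, 26, 31, 33 and 36, and r was -0.17 without library 17. Grik2 had r = -0.55 with the excitatory neuron list (rho = -0.49, adjusted p = 0.00804 and 0.0416), with Camk2a at -0.48, and -0.53 without library 17. The striatum and thalamus list gave r = -0.56 with Gria2 (rho = -0.50, adjusted p = 0.00804 for Pearson and 0.0416 for Spearman). With Grik2 it gave r = -0.50 (rho = -0.41, adjusted p = 0.0188 and 0.0817), a call lost without library 15 at r = -0.41. The list's genes Drd2 and Adora2a were low, at 45.2 to 111 and 61.7 to 131 normalized counts. Its other genes were higher, with Ppp1r1b at 2166 to 3136, Tcf7l2 at 284 to 414 and Lef1 at 208 to 384. With Grik2, Ppp1r1b had r = -0.50 and Adora2a -0.46, whereas Tcf7l2 had -0.22, Lef1 -0.19 and Drd2 -0.02. With Gria2 the list's genes had r between -0.33 and -0.22. Without the 2 libraries farthest on the list's axis, 0 of the 117 relations passed by the permutation test and 27 had an unadjusted p under 0.05, and all 17 relations kept their sign. For Grik5 with the CA1 list r was 0.52 without those 2 libraries and 0.48 with them, so that call was lost while r was as large. Without them r with the interneuron list was 0.45 for Gria1, 0.35 for Gria4 and 0.47 for Grik1, and r with the CA2 list was 0.52 for Grik4, 0.39 for Grik5 and -0.45 for Grik3. The part of tissue make-up in the subunit levels was not tested.

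**Figure D3:**
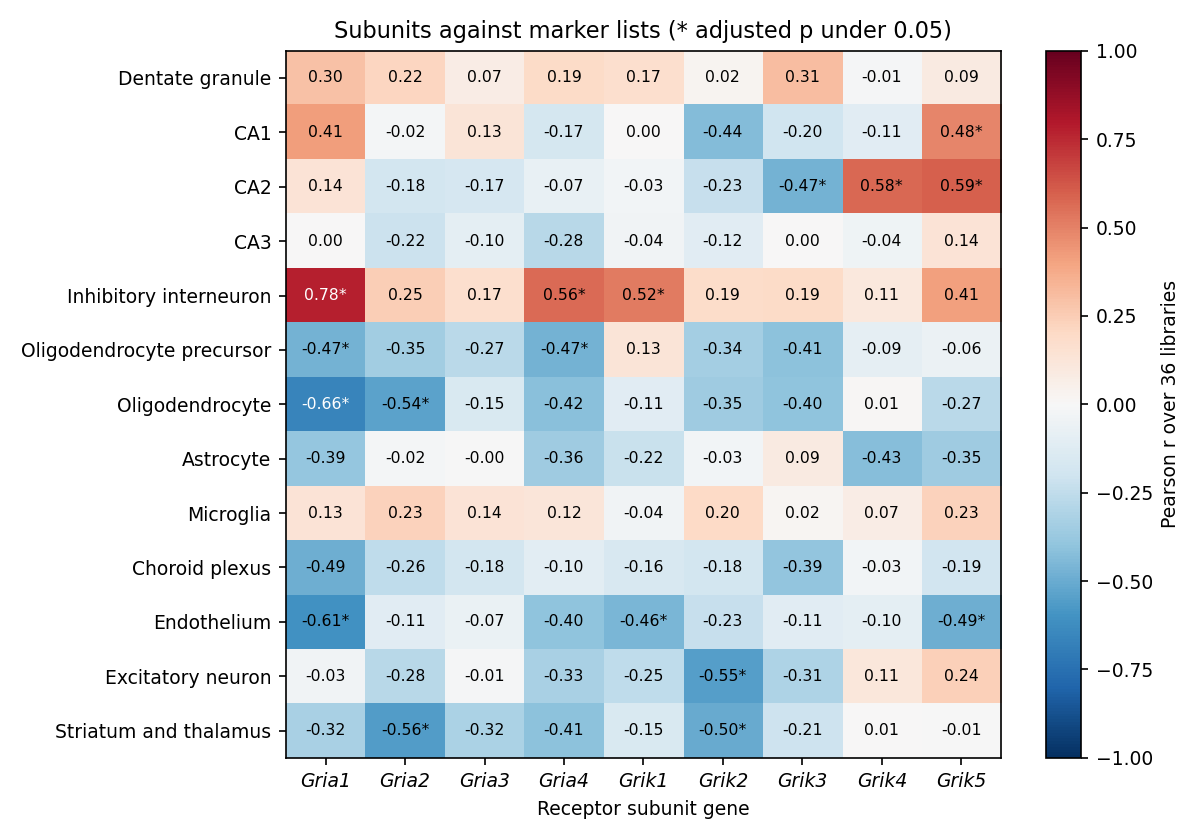
Cells give Pearson r over 36 libraries between a subunit and the mean log2(value + 1) of a marker list, and stars mark an adjusted p under 0.05 over 117 relations. The inhibitory interneuron row is starred for Gria1, Gria4 and Grik1, and the CA2 row for Grik3, Grik4 and Grik5, with Grik3 negative.

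Proteins that assemble, traffic or anchor AMPA receptors were taken from a list of 28 genes, of which 26 were in the table, Shisa9 and Gsg1l not being found by symbol. With Gria1, 6 of the 26 partners (23.1%) had an r of at least 0.5 in size, all positive, against 9.86% of all genes. Without library 17, 4 did (15.4%), against 4.93% of all genes. The highest was Shisa6, an auxiliary subunit, at r = 0.77 (0.76 without library 17), followed by its relative Shisa7 at 0.66. The lowest was Dlg1, a scaffold protein, at -0.44 with library 17 and -0.06 without it. With Gria2, 0 of 26 reached 0.5 in size, against 7.94% of all genes, and 2 (7.69%) did without library 17, against 11.2%. The highest with Gria2 was Frrs1l, needed for receptor assembly in the endoplasmic reticulum, at 0.49. Frrs1l was also the highest with Gria3, at 0.53, the only partner of 26 (3.85%) past 0.5 there, a share near the 3.46% of all genes. Frrs1l was likewise the highest with Gria4, at 0.46. With Gria4, 3 of 26 (11.5%) were past 0.5 in size, all negative, against 6.40% of all genes. Without library 17, 5 were (19.2%), against 6.19% of all genes. The lowest was Cacng4, a transmembrane AMPA receptor regulatory protein, at -0.66, and its relatives Cacng2 and Cacng7 had -0.57 and -0.51. Its other listed relatives had r near 0 or weakly negative with Gria4, Cacng5 -0.17, Cacng3 -0.06 and Cacng8 0.00. Cacng8 had r = 0.56 with Gria1, and 0.27 without library 17. Cacng7 was the lowest with Gria2, at -0.48, and with Gria3, at -0.32. The median r over the 26 partners was 0.21 for Gria1, -0.08 for Gria2, -0.11 for Gria3 and -0.06 for Gria4, beside medians of -0.01 to 0.00 over all genes. Nptxr, the neuronal pentraxin receptor, had a median of 57525 normalized counts, a range of 40585 to 67481 and r between -0.29 and 0.34 with the AMPA subunits. Without library 17, its lowest library, r was negative with each of them, from -0.48 with Gria3 to -0.19 with Gria1.

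Of the 8 genes on the kainate list, all in the table, none reached 0.5 in size with Grik1 or Grik2. Grid1, a glutamate receptor of the delta type, had r = 0.59 with Grik5, and 0.26 without library 17. Of the 8 genes it was the only one to reach 0.5 in size with Grik5 (12.5%), against 8.17% of all genes. Neto1, an auxiliary subunit of kainate receptors, was the highest with Grik4, at 0.47, and with Grik2, at 0.36. Klhl17, an actin-binding protein that binds GluK2, was the lowest with Grik2, at -0.22, and with Grik1, at -0.10. C1ql2, a mossy fibre protein that is also on the dentate granule list, had -0.18 with Grik3, the lowest there.

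For each subunit the 3 genes with the highest r over the 36 libraries are given as a description, with no test. Gria1 was most like Sez6l, a neuronal membrane protein (r = 0.87), Scn2b, a sodium channel auxiliary subunit (0.85), and Arel1 (0.83), and these were 0.75, 0.78 and 0.79 without library 17. Gria2 was nearest to Mctp1 (0.83), Kcnt2, a sodium-activated potassium channel (0.82), and Bclaf1 (0.80). For Gria3 they were Actr2, an actin-nucleating protein (0.82), Usp47, a deubiquitinase (0.79), and Epha4, an ephrin receptor (0.77). For Gria4 they were the adhesion protein Alcam (0.73), the proton pump subunit Atp6v1a (0.73) and Reln, secreted by interneurons (0.73). Reln ranged from 1027 to 3183 normalized counts.

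Grik1 had lower values than the other subunits even with its nearest genes, Dyrk3 (0.65), Lhx6, a transcription factor of interneurons (0.59), and Lypd6b (0.59). Grik2 was nearest to Ube2k, a ubiquitin-conjugating enzyme (0.80), Ptbp2, a neuronal splicing regulator (0.78), and Naa15 (0.78). Grik3 was nearest to Gas7 (0.89), Flrt1 (0.87) and Adar, an RNA-editing enzyme (0.87), which were 0.89, 0.88 and 0.88 without library 17. Adar ranged from 3307 to 4174 normalized counts. Grik4 was nearest to Cpne4, also on the CA3 list (0.84), Cst6 (0.81) and Tuba8 (0.77). Grik5 was nearest to Miga2 (0.82), Dmwd (0.82) and the adhesion receptor Adgrb2 (0.82), which were 0.78, 0.70 and 0.74 without library 17.

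**Figure D4:**
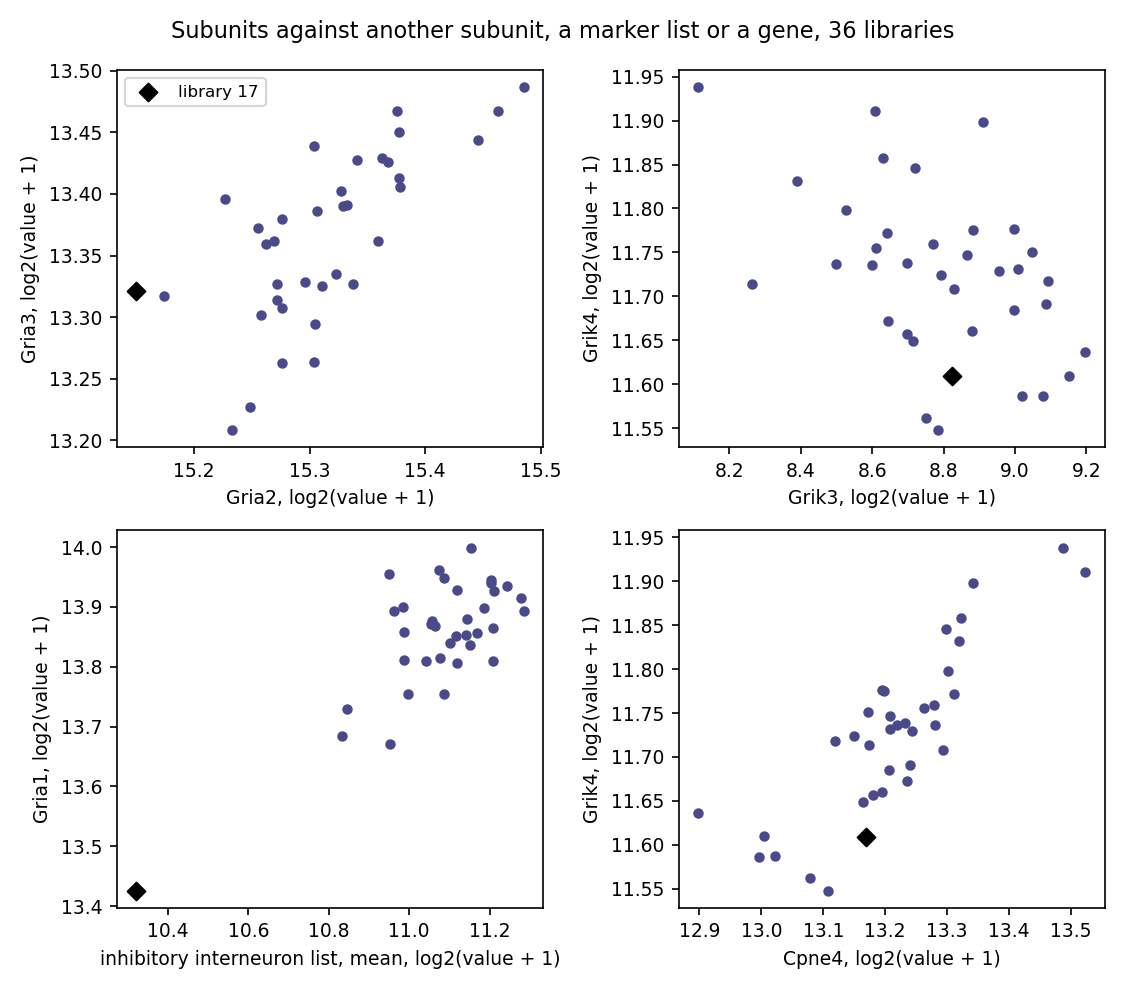
Each point is 1 of 36 libraries on log2(value + 1) axes, with library 17 as a diamond. Gria2 with Gria3 (r = 0.70) and Cpne4 with Grik4 (0.84) spread along the whole range, Grik3 with Grik4 (-0.47) has library 10 at the upper left, and Gria1 with the interneuron list (0.78) has library 17 far from the rest (0.54 without it).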

How the data were processed

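Hippocampal RNA of 36 rats was analysed from 1 deposited table of normalized count signal values per gene. Of tools, kallisto 0.43 and DESeq2 are listed, with no role or order, per the submitters' processing notes; not given in the sources used here are transcriptome, filters and scaling. The values are not whole numbers and share no step within a column, so reads could not be recovered. Columns name the tissue only and were taken as 36 libraries of the 1 tissue group, and 0 other columns were present. Members and lists were chosen with earlier results of these data known.

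Values were analysed as log2(value + 1). Genes with a median of at least 10 (15837 of 20603) served as background. Pearson r and Spearman rho had two-sided permutation tests (100000 resamples, smallest p 1.0e-05) with Benjamini-Hochberg adjustment over 36 pairs and over 117 subunit and list relations (Python 3.11.15, numpy 2.4.6, pandas 2.3.3). The test was checked on simulated data. The list genes Npy and Pecam1 were not found by symbol. Named genes were all 9 members, the 3 genes closest to each (predicted genes left out), and of the partner lists the genes highest and lowest in r with a member and highest in level; other list genes named were chosen after their values were seen. Alternatives covered the pseudocount, scaling, low-value filter, rank correlation, extreme libraries and the first principal component; leaving out library 17 or any 1 library was added after seeing the data. Levels between genes were not compared because no coding lengths were at hand. The result of 1 gene of the kainate partner list is not reported here.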

Additional observations from a re-analysis of the deposited data

How the results depend on the processing

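The number of subunit pairs past the threshold was 11. It was 9 with Spearman's rho, 11 with a pseudocount of 0.5 or 10, 13 with scaling to the column sum, 9 with scaling to the upper quartile and 13 without library 17, of which 8 were among the 11. It fell to 2 without the 2 libraries farthest on the x axis, and to 4 with the first principal component removed, 3 of them among the 11 (Gria2 with Gria3, Gria2 with Grik2, Grik4 with Grik5). Leaving out each library in turn gave 8 to 13 pairs. All 11 pairs kept their sign in every alternative listed here. The number of marker list relations past the threshold was 17. It was 8 with Spearman's rho, 0 without the 2 farthest libraries, 15 and 16 under the other scalings, and 19 with list members of median at least 10. It was 12 without library 17, and 12 to 23 on leaving out each library. With the first principal component removed it was 9, with 6 of them among the 17. These 6 were Gria1 with the interneuron and endothelial lists, Grik4 with CA2, and Grik5 with CA1, CA2 and endothelium. Gria1 with CA1 also passed there (r = 0.71, adjusted p = 0.00117, permutation test). The cause of these losses was not tested, beyond there being 34 libraries in place of 36 without the 2 farthest. The medians of the 9 subunits moved by less than 1 SD under both scalings and without library 17. The columns differed little in sum and a median hardly depends on 1 library, so a larger move could hardly occur. Without library 17 the log2 span of Gria1 to Gria2 was 0.36 against 0.49 with it, and that of Gria1 to Gria3 0.28 against 0.56. Of the 27 genes named as closest, 27 remained without a low-value filter and with a minimum of 50, 16 without library 17 and 9 with Spearman's rho. No paired analysis was possible because the columns carry no replicate numbers.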
